A study of Homo sapiens with 12 samples.

Results

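The genes described here are 10 markers of glandular pancreatic tumour cells: 4 members of the carcinoembryonic antigen family (CEACAM1, CEACAM5, CEACAM6 and CEACAM7), the anterior gradient genes AGR2 and AGR3, the tetraspanin TSPAN8, the galectin LGALS4, the claudin CLDN18 and lysozyme, LYZ. They were chosen by symbol, and the value of each was the sum of its transcript rows. They are 10 of the 39099 genes that the table yields. Values are TPM, a relative transcript abundance that corrects for transcript length and sums to the same total in every library. A gene entered the tests if 2 or more of the 12 libraries had 1 TPM or more, as 14767 genes did, and 7 of the 10 passed. CEACAM7, AGR3 and CLDN18 did not pass. CEACAM5, CEACAM6, TSPAN8 and LYZ passed through 1 cell line alone, so the difference between the lines in these genes was in part set by the filter.

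The libraries come from the human lines AsPC-1 and PANC-1, both grown from pancreatic cancers and long established in culture, and each line carried a mock control, TAp63 or deltaNp63. These are the forms of the transcription factor p63 made from the upstream and from the internal promoter of TP63, and per the series text they were overexpressed. Each of the 6 groups has 2 libraries, which the labels call biological replicates. The vector, the duration of expression, what the mock cells received and the number of clones behind a line are not given in the sources used here. Whether replicates were separate cultures is not given either, so the p-values measure the spread between these libraries.

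TP63 RNA, summed over its transcripts, was 0.817 and 1.10 TPM in mock AsPC-1 libraries, between 102 and 170 TPM with TAp63 and between 245 and 350 TPM with deltaNp63. In PANC-1 it was at most 0.119 TPM in mock cells, 324 and 342 TPM with TAp63, and 815 and 1187 TPM with deltaNp63. The sums separate construct from mock in both lines but do not tell the 2 forms apart. In both lines the deltaNp63 libraries held more TP63 RNA than the TAp63 libraries. Where the constructs are compared, the form of p63 and its level therefore cannot be told apart. The epithelial markers were present in both lines, at unlike levels. EPCAM lay between 1256 and 1410 TPM in AsPC-1 and between 42.6 and 49.5 TPM in PANC-1. CDH1 was 81.8 to 123 TPM in AsPC-1 and 2.37 to 3.74 TPM in PANC-1. KRT7 was 9.24 to 13.1 TPM in AsPC-1 and 13.7 to 17.5 TPM in PANC-1. Of 6 fibroblast markers, LUM was 177 to 288 TPM in AsPC-1 and COL1A1 80.8 to 111 TPM in PANC-1. The other fibroblast markers were below 1 TPM in every library. Of 8 leukocyte markers, CD68 made up nearly all of the summed level, which was 91.3 to 126 TPM in AsPC-1 and 258 to 292 TPM in PANC-1, and PTPRC, CD3E and MS4A1 were at or near 0 (at most 0.055 TPM) in every library. 1 library stood apart from its replicate: KRT8 was 2034 TPM in AsPC-1 deltaNp63 replicate 1 and 3609 TPM in replicate 2, and leaving out either library of this pair is given beside the fold change of each named gene for deltaNp63 against mock in AsPC-1.

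Carcinoembryonic antigen family proteins are immunoglobulin-fold adhesion molecules of the apical surface. CEACAM5, CEACAM6 and CEACAM7 are held in the membrane by a glycosylphosphatidylinositol (GPI) lipid anchor. CEACAM1 spans the membrane and signals through its cytoplasmic tail. AGR2 and AGR3 belong to the protein disulfide isomerase family of the endoplasmic reticulum, and AGR2 is needed for mucin folding. TSPAN8 organises membrane microdomains, LGALS4 binds sugars on glycoproteins and sulfatides, CLDN18 builds tight junctions of the stomach and lung, and LYZ cleaves bacterial walls. In pancreatic cancer these genes mark the classical, glandular subtype, and p63 marks the squamous subtype.

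The promoters of the 4 CEACAM genes are shown because the genes are related in sequence while their levels, given after them, differ widely. Each window covers 250 bases before to 50 bases after the RefSeq transcription start (GRCh38.p14), 5′ to 3′ on the strand of the gene. Capitals mark matches to an interferon-response element, searched as GAAANNGAAA on both strands, or to an E-box, searched as CACGTG.
CEACAM1 promoter: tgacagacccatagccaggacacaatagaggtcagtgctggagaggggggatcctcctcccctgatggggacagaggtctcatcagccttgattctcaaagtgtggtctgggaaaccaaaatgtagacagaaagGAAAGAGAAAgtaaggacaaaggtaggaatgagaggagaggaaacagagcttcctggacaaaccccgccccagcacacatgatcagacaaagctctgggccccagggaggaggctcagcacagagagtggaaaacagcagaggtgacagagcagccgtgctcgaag
CEACAM5 promoter: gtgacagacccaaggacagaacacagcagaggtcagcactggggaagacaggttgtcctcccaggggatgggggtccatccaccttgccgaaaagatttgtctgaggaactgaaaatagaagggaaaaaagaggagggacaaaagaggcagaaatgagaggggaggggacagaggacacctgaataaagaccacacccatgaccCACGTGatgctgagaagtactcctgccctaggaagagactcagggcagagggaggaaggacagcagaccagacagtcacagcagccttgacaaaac
CEACAM6 promoter: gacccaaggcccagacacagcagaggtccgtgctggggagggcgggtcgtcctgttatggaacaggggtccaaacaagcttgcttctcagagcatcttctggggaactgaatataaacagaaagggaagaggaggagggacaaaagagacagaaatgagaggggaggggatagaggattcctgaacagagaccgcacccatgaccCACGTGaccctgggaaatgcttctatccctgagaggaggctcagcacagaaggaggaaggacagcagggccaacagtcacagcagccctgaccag
CEACAM7 promoter: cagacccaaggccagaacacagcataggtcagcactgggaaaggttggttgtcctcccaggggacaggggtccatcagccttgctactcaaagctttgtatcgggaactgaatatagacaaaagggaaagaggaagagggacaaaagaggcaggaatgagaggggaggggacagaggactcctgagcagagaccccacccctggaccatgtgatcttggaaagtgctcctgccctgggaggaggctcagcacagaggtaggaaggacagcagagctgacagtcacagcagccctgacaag
The windows lie at chr19:42528432-42528731 on the minus strand for CEACAM1, chr19:41708376-41708675 on the plus strand for CEACAM5, chr19:41755280-41755579 on the plus strand for CEACAM6 and chr19:41688221-41688520 on the minus strand for CEACAM7.

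CEACAM5 and CEACAM7 were the most alike pair, with 81.4% identical columns in a global alignment, followed by CEACAM6 and CEACAM7 with 80.5% and CEACAM5 and CEACAM6 with 74.7%. CEACAM1 was the least like the others, at 65.6% to CEACAM5, 68.2% to CEACAM6 and 71.2% to CEACAM7. The interferon-response element stood in the CEACAM1 window alone of the 4, 116 to 107 bases before the start. Of 35116 promoter windows of the same length in the RefSeq table, 3.574% hold this motif. The E-box stood 46 to 41 bases before the start of CEACAM5 and 45 to 40 bases before that of CEACAM6, and in neither of the other 2 windows. It occurs in 7.256% of all windows. A GATA site, searched as AGATAA, and a p53-family half-site, the motif that p63 also reads, were searched on both strands as well. The former stood in the AGR2 window and in 1 CLDN18 window (10.331% of all windows), the latter in the CEACAM6 window and in 1 of the 2 CLDN18 windows (6.632% of all windows). The interferon-response element also stood in 1 of the 2 windows of TSPAN8. These are matches of letters, not measured binding sites. CEACAM7, whose window is closest to that of CEACAM5, was not above 0.237 TPM in any library.

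In AsPC-1, 7 of the 10 genes were expressed well above 1 TPM in every library. CEACAM6 had the highest level, 897 and 858 TPM in mock cells (mean 877.8 ± 27.4, SD, n = 2). LGALS4 was next, at 524 and 511 TPM (518 ± 9.55, SD, n = 2). TSPAN8 at 252 and 205 TPM and CEACAM1 at 211 and 243 TPM overlapped, so their order was not resolved. LYZ followed at 130 and 110 TPM, then AGR2 at 47.7 and 48.4 TPM and CEACAM5 at 33.4 and 35.0 TPM, and these 3 did not overlap one another. AGR3 (0.568 and 0.349 TPM), CEACAM7 (0.215 and 0.117 TPM) and CLDN18 (0.0491 and 0 TPM) lay below 1 TPM in all 6 AsPC-1 libraries. The 10 genes together made up 1982 to 2128 TPM in the AsPC-1 libraries.

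PANC-1 kept AGR2 and little else of the set, which together made up 87.3 to 117 TPM. AGR2 was 111 and 92.9 TPM in mock cells (102 ± 13.1, SD, n = 2). CEACAM1 was 3.23 and 3.26 TPM and LGALS4 1.52 and 0.732 TPM. The other 7 genes were below 0.25 TPM in all 6 PANC-1 libraries, and AGR3 was listed at 0 in each of them. For CEACAM6, the row of the full-length coding transcript CEACAM6-201 was listed at 0 in all 6, and the traces, at most 0.221 TPM, stood on the short row CEACAM6-202. Above 1 TPM in every library of a line were thus 7 genes in AsPC-1, and in PANC-1 AGR2 and, at a low level, CEACAM1. Whether the label of classical markers fits either line was not tested. AGR2 was higher in PANC-1, where most of the set was near 0.

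**Figure D1:**
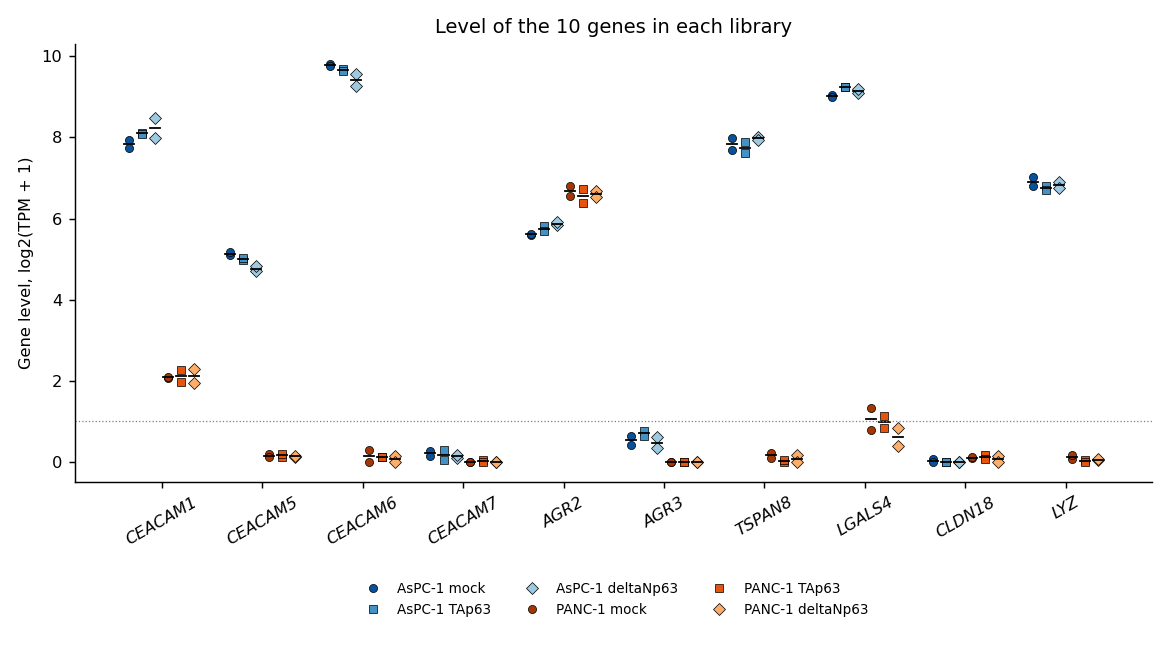
Level of each of the 10 genes as log2(TPM + 1) in the 12 libraries, with AsPC-1 in blue and PANC-1 in orange; symbols give the construct, short bars the mean of 2 replicates, and the dotted line 1 TPM. AGR2 is the only gene whose PANC-1 libraries (81.8 to 111 TPM) lie above its AsPC-1 libraries (47.7 to 59.6 TPM) among the 7 genes that were tested.

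Between mock cells of the lines, AGR2 was higher in PANC-1 and the other 6 tested genes were lower. All 7 passed limma's test on log2(TPM + 1) with Benjamini-Hochberg adjustment over all genes tested, at a threshold of 0.05. This has to be read against the background, since 72.5% of all genes tested passed in this comparison, 44.6% higher and 27.9% lower in PANC-1. CEACAM5, CEACAM6, TSPAN8 and LYZ passed the filter through AsPC-1 alone. Their direction was thus in part set by the filter, and the share of all genes is no test of it. AGR2 was higher by 1.07 on the log2 scale (SE 0.129, limma adjusted p = 3.28e-05). The lower genes had log2 fold changes of -9.64 for CEACAM6, -7.96 for LGALS4, -7.67 for TSPAN8, -6.78 for LYZ, -5.74 for CEACAM1 and -4.98 for CEACAM5, with limma adjusted p of at most 1.13e-09 for CEACAM1 and lower for the rest. With PANC-1 values near 0, the added 1 TPM limits these folds. The median over all genes tested was 0.24. In bulk libraries, fewer cells that express a gene and less RNA per cell cannot be told apart.

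CEACAM1 lies at chr19:42507304-42561234 on the minus strand (hg38, GENCODE v44; ENSG00000079385), and the antisense RNA gene LIPE-AS1 overlaps it on the plus strand. LIPE-AS1 was 2.86 to 6.03 TPM in AsPC-1 and 2.08 to 7.17 TPM in PANC-1. The PANC-1 level of CEACAM1, 2.87 to 3.94 TPM, is of that size, and whether the authors' quantification used strand is not given in the sources used here. TSPAN8 lies at chr12:71125085-71441898 (minus strand, ENSG00000127324) and overlaps LGR5 on the plus strand, which reached 2.54 TPM at most, far below TSPAN8 in AsPC-1. CEACAM5 (chr19:41708585-41730433, plus strand, ENSG00000105388) and CEACAM6 (chr19:41750977-41772211, plus strand, ENSG00000086548) are neighbours, and an annotated protein-coding gene on the same strand (ENSG00000267881) that overlaps both was not analysed here. Of the 50-base stretches of their main transcripts, 1.80% and 2.95% occur in another of the 10 genes, against 1.63% for CEACAM1. Most of each sequence can thus be told apart from the others of the 10. Genes outside the 10, among them the rest of the family and the overlapping gene, were not searched.

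With the constructs, none of the 7 tested genes passed limma's test in either line. In AsPC-1, TAp63 against mock gave 0 of 7 called, where 0.637% of all genes tested passed. Of the 7, 0 had an unadjusted p under 0.05, where 2233 of the 14767 genes tested did. DeltaNp63 against mock gave 0 of 7 called, where 7.14% of all genes passed. Here 3 of 7 had an unadjusted p under 0.05 (CEACAM1, CEACAM5 and CEACAM6), where 4383 of the 14767 genes did. TAp63 against deltaNp63 gave 0 of 7 against a background of 0.0203%. It gave 1 unadjusted p under 0.05, that of CEACAM5, where 1170 of the 14767 genes had one. In PANC-1, 0 of 7 were called with TAp63 (background 0.00677%), with deltaNp63 (0.0406%) or between the 2 constructs (0.0271%). CEACAM5, CEACAM6, TSPAN8 and LYZ were at most 0.221 TPM in PANC-1, so a fall in them could not be called there. LGALS4, at most 1.52 TPM, left little room for one. LGALS4 with deltaNp63 was the only gene of the 7 with an unadjusted p under 0.05, where 345 of the 14767 genes had one. The 95% intervals in AsPC-1 ran no lower than -0.64 and no higher than 0.79 on the log2 scale over both constructs and all 7 genes. All 12 libraries share the estimate of spread behind these intervals. CEACAM5, CEACAM6, TSPAN8 and LYZ are near 0 in PANC-1, which can make their intervals too narrow for AsPC-1. The range is therefore no firm bound.

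In AsPC-1 TPM, CEACAM1 lay above its mock level with both constructs and the lipid-anchored CEACAM5 and CEACAM6 lay below theirs, but none of these differences passed. After centring each library on its median, the TAp63 values of CEACAM5 and CEACAM6 turned to 0.0011 and 0.014, the same side as CEACAM1. CEACAM1, the membrane-spanning member, was 211 and 243 TPM in mock, 277 and 271 TPM with TAp63, and 355 and 251 TPM with deltaNp63. Both construct groups lay above mock without overlap, though the deltaNp63 replicates were far apart. Its log2 fold change was 0.27 with TAp63 (SE 0.177, limma adjusted p = 0.507) and 0.40 with deltaNp63 (SE 0.177, limma adjusted p = 0.168). Without deltaNp63 replicate 1 the latter was 0.15 (limma adjusted p = 0.732), and without replicate 2 it was 0.64 (limma adjusted p = 0.0232).

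CEACAM5, the carcinoembryonic antigen measured in blood as a tumour marker, was 33.4 and 35.0 TPM in mock AsPC-1 cells, 30.7 and 31.6 TPM with TAp63 and 25.2 and 27.3 TPM with deltaNp63. The 3 groups did not overlap, in the order mock, TAp63, deltaNp63. The log2 fold change was -0.13 with TAp63 (limma adjusted p = 0.602) and -0.37 with deltaNp63 (SE 0.104, 95% interval -0.60 to -0.14, limma adjusted p = 0.0584). CEACAM5 is near 0 in PANC-1, where it hardly varies, and all 12 libraries share the estimate of spread. With the 6 AsPC-1 libraries alone, the limma adjusted p was 0.235. Without deltaNp63 replicate 1 the value was -0.31 (limma adjusted p = 0.266), and without replicate 2 it was -0.42 (limma adjusted p = 0.0339). The difference between TAp63 and deltaNp63 was 0.24 (SE 0.104, limma adjusted p = 0.628).

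CEACAM6, the most abundant of the 10, was 897 and 858 TPM in mock, 819 and 799 TPM with TAp63, and 619 and 758 TPM with deltaNp63. Again the groups did not overlap, and both deltaNp63 libraries were the lowest. The log2 fold change was -0.12 with TAp63 (limma adjusted p = 0.722) and -0.36 with deltaNp63 (SE 0.125, limma adjusted p = 0.0961), against a TAp63 minus deltaNp63 difference of 0.24 (limma adjusted p = 0.644). Without deltaNp63 replicate 1 the deltaNp63 value was -0.21 (limma adjusted p = 0.471), and without replicate 2 it was -0.50 (limma adjusted p = 0.0215). CEACAM7 was between 0.0374 and 0.237 TPM in the AsPC-1 libraries and listed at 0 in 5 of 6 PANC-1 libraries, so no change was detectable in it.

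AGR2 (chr7:16791811-16833433, minus strand, ENSG00000106541) was 47.7 and 48.4 TPM in mock AsPC-1, 55.2 and 50.7 TPM with TAp63 and 56.1 and 59.6 TPM with deltaNp63. The groups did not overlap, with mock lowest. TAp63 gave 0.14 on the log2 scale (limma adjusted p = 0.674), and deltaNp63 gave 0.26 (SE 0.129, limma adjusted p = 0.204). The latter was 0.31 without deltaNp63 replicate 1 and 0.22 without replicate 2. In PANC-1 the AGR2 groups overlapped, at 111 and 92.9 TPM in mock, 81.8 and 104 TPM with TAp63, and 102 and 90.9 TPM with deltaNp63. AGR3, the neighbour of AGR2 at chr7:16859412-16881987 (minus strand, ENSG00000173467), stayed between 0.264 and 0.713 TPM in AsPC-1.

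LGALS4 (chr19:38801671-38812945, minus strand, ENSG00000171747) was 524 and 511 TPM in mock AsPC-1, 602 and 602 TPM with TAp63, and 549 and 584 TPM with deltaNp63. Both construct groups lay above mock without overlap. The log2 value for TAp63 was 0.22 (limma adjusted p = 0.640), and for deltaNp63 it was 0.13 (limma adjusted p = 0.708). Leaving out deltaNp63 replicate 1 gave 0.18, and leaving out replicate 2 gave 0.086. In PANC-1 it was 1.52 and 0.732 TPM in mock and 0.795 and 0.314 TPM with deltaNp63, overlapping groups with a log2 difference of -0.44 (limma adjusted p = 1). TSPAN8 was 252 and 205 TPM in mock AsPC-1, 234 and 194 TPM with TAp63, and 258 and 243 TPM with deltaNp63. Both construct groups overlapped with mock, and the log2 fold changes were -0.093 and 0.14 (limma adjusted p = 0.816 and 0.532). The deltaNp63 value of TSPAN8 was 0.098 without deltaNp63 replicate 1 and 0.19 without replicate 2.

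LYZ (chr12:69348381-69354234, plus strand, ENSG00000090382) was 130 and 110 TPM in mock AsPC-1, 110 and 102 TPM with TAp63, and 119 and 108 TPM with deltaNp63. The groups overlapped, and the log2 fold changes were -0.17 and -0.076 (limma adjusted p = 0.532 and 0.718). The deltaNp63 value of LYZ was -0.15 without deltaNp63 replicate 1 and -0.0063 without replicate 2. LYZ is also made by myeloid cells. In AsPC-1 the general leukocyte marker PTPRC was at most 0.010 TPM, CD14 at most 0.49 TPM and CD68 90.8 to 126 TPM. The source of LYZ was not tested. CLDN18 (chr3:137998735-138033655, plus strand, ENSG00000066405) was listed at 0 in 5 of 6 AsPC-1 libraries and did not pass 0.136 TPM in PANC-1.

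**Figure D2:**
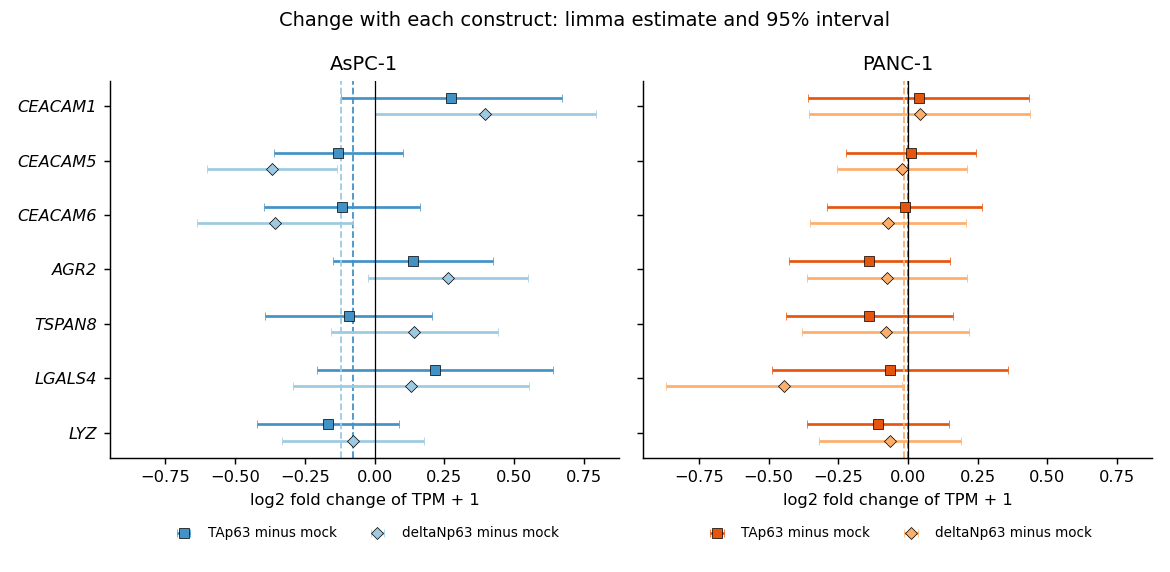
Log2 fold change of TPM + 1 of the 7 tested genes for TAp63 (squares) and deltaNp63 (diamonds) against mock in AsPC-1 and PANC-1, with 95% intervals from limma; dashed lines mark the median of all genes tested. In AsPC-1 the deltaNp63 intervals of CEACAM5 and CEACAM6 lie below 0 and that of CEACAM1 just above 0, and after adjustment over all genes none of the 3 passed.

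Groups without overlap were common in AsPC-1, so their number among the 7 genes is read against all genes. With TAp63, 3 of 7 lay wholly above mock and 2 of 7 wholly below, where 11.2% and 35.4% of all genes tested did so. With deltaNp63, 3 of 7 lay above and 2 of 7 below, against 11.1% and 41.1%. The genes above mock were CEACAM1, AGR2 and LGALS4, and those below were CEACAM5 and CEACAM6, for either construct. The 2 comparisons share the mock libraries. The median log2 fold change of the 7 genes was -0.093 with TAp63 and 0.13 with deltaNp63, beside -0.077 and -0.12 over all genes tested. Centring each library on its median moved the latter to 0.055 and 0.088, a shift of over 0.1 on the log2 scale. Relative to that centring, CEACAM5 and CEACAM6 stood at 0.0011 and 0.014 with TAp63, so their lower value with TAp63 does not hold on that scale, while with deltaNp63 they stayed below mock at -0.16 and -0.15.

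The effect of a construct was also compared between the lines. None of the 7 passed for TAp63 (background 0.0745%) or for deltaNp63 (background 0.582%). For CEACAM5, CEACAM6, TSPAN8 and LYZ, which are near 0 in PANC-1, a fall could not show in that line. The comparison of these genes therefore rests mainly on AsPC-1. At an unadjusted p under 0.05 there was none of the 7 for TAp63, where 1540 of the 14767 genes were. For deltaNp63 there was 1 of the 7, where 2431 of the 14767 genes were. This was CEACAM5, whose difference of 0.35 (SE 0.147, limma adjusted p = 0.284) is measured against a PANC-1 level of at most 0.154 TPM. It was 0.29 without AsPC-1 deltaNp63 replicate 1 and 0.40 without replicate 2.

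The make-up of the CEACAM transcripts in AsPC-1 is described by a measure chosen after the values were seen and so given with no test. CEACAM1 held 18.5% and 21.4% of the summed TPM of the 4 CEACAM genes in mock, 24.6% in both TAp63 libraries, and 35.5% and 24.2% with deltaNp63. The groups did not overlap with mock, and the higher deltaNp63 value came from replicate 1 alone. DeltaNp63 replicate 2 lay below both TAp63 libraries, so the constructs were not separated. How often such shares separate from mock over all genes was not computed. The summed level itself was 1139 ± 4.18 TPM (SD, n = 2) in mock, 1114 ± 17.8 with TAp63 and 1018 ± 26.6 with deltaNp63. In PANC-1 the sum was 3.07 to 4.08 TPM.

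CEACAM1 is spliced into proteins with a long tail, which carries inhibitory tyrosine motifs, or a short tail without them. The difference is a 53-base exon that coding transcripts of the long form include. The exon is shown because the transcript rows can be split by it. Capitals mark the exon at chr19:42511576-42511628 (hg38, minus strand), and lower case its 20 flanking intronic bases on each side.
CEACAM1 tail exon: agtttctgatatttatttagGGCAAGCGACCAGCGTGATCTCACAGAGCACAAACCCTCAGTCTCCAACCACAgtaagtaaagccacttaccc
The acceptor AG stands before the capitals and the donor GT follows them. Rows that include the exon (CEACAM1-201, CEACAM1-203 and CEACAM1-204) held 71.2% and 72.9% of the TPM of the protein-coding CEACAM1 rows in mock AsPC-1, 76.0% and 75.2% with TAp63, and 75.3% and 74.0% with deltaNp63. Long-tail rows were thus the majority in every AsPC-1 library. Both construct groups lay above mock without overlap, a description with no test. They share the mock libraries, and how often transcript shares separate in this way over all genes was not computed. In PANC-1 the share was lower and more scattered, at 64.8% and 51.0% in mock, 65.3% and 61.3% with TAp63, and 54.0% and 44.9% with deltaNp63. It rested there on 1.47 to 2.44 TPM of long-tail rows. Rows depend on how the authors' program divided shared sequence.

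Of 6 splicing regulators in a list tied to this exon and to epithelial splicing, none passed with either construct in AsPC-1. Between the lines ESRP1, an epithelial splicing regulator, was lower in mock PANC-1 (log2 fold change -5.35, limma adjusted p = 2.67e-10). ESRP1 passed the filter through AsPC-1 alone, so this direction was in part set by it. HNRNPL and ESRP2 were higher, by 1.21 and 1.06, and HNRNPA1 was lower (log2 fold change -0.53). Of 4 phosphatases and kinases that bind the long tail, 1 was called lower with deltaNp63 in AsPC-1, where 6.51% of all genes were. This was SRC, at 57.7 and 61.7 TPM in mock and 37.7 and 45.6 TPM with deltaNp63 (log2 fold change -0.51, limma adjusted p = 0.0383). The call was lost in 6 of 7 other settings, among them the AsPC-1 libraries alone (limma adjusted p = 0.169) and the fit without deltaNp63 replicate 1 (log2 fold change -0.38, limma adjusted p = 0.181), and without replicate 2 the value was -0.65 and 3 of the 4 passed. None of the 5 subunits of the transamidase that attaches the lipid anchor of CEACAM5 and CEACAM6 passed with a construct. Without deltaNp63 replicate 2, where 4057 genes passed in all, 2 of the 6 splicing regulators and 3 of the 5 subunits passed as lower, and without replicate 1 none did.

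For AGR2, most of the summed level stood on a transcript with no coding sequence. AGR2-207, a 572-base retained-intron transcript, held 83.2% to 88.9% of AGR2 TPM in AsPC-1 and 83.6% to 90.0% in PANC-1. The coding transcript AGR2-203 was 5.36 to 8.20 TPM in AsPC-1 and 10.1 to 16.6 TPM in PANC-1. The intronic bases that mark AGR2-207 are shown because they are what separates it from the coding row. Capitals mark the 170 bases at chr7:16799574-16799743 (hg38, minus strand) that the coding transcript AGR2-203 splices out, after 20 exonic bases in lower case.
AGR2-207 retained intron bases: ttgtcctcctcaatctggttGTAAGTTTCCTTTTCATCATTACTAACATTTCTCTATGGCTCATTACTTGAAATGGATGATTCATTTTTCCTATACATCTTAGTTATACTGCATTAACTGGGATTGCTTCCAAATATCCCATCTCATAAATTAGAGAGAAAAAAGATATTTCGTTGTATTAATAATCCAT
Of the 50-base stretches of AGR2-207, 67.5% also occur in other AGR2 rows. The table holds rows for 5 of the 7 AGR2 transcripts of GENCODE v44, and the other 2 were not analysed here. The line difference stood on both rows: mock PANC-1 exceeded mock AsPC-1 by 0.96 on the log2 scale in AGR2-203 (limma adjusted p = 0.00512 over all transcript rows tested) and by 1.07 in AGR2-207 (limma adjusted p = 0.000306). AGR2-206, a 117-base row, was listed at 0 in 10 libraries and at 6.04 and 2.41 TPM in PANC-1 with deltaNp63, which did not pass (limma adjusted p = 0.108).

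**Figure D3:**
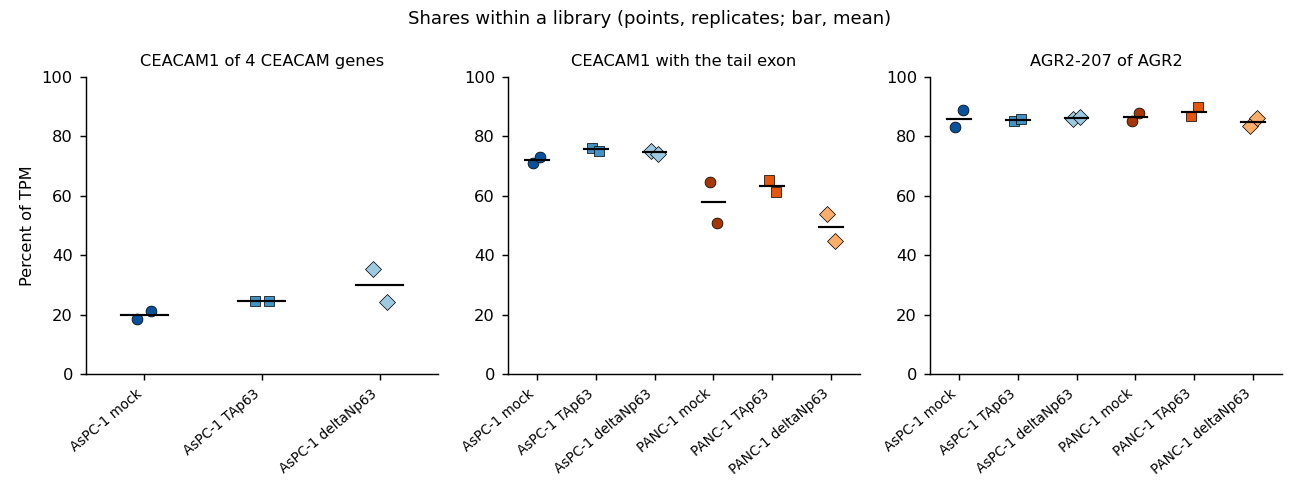
Shares of TPM in each library (points, replicates; bars, means): CEACAM1 among the 4 CEACAM genes in AsPC-1, tail-exon rows among the protein-coding CEACAM1 rows, and AGR2-207 among the AGR2 rows. The first is 18.5% and 21.4% in mock and 35.5% and 24.2% with deltaNp63, in a measure chosen after the values were seen and not tested. The second is lower in PANC-1, and the third lies between 83.2% and 90.0% in all 12 libraries.

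The transcript rows of the other genes were dominated by coding forms in AsPC-1. CEACAM5-201 held 79.2% to 87.6% of CEACAM5. TSPAN8 was split between TSPAN8-201, with 55.4% to 59.8%, and TSPAN8-203, with 38.9% to 43.4%. Another coding row, TSPAN8-202, starts far upstream and held 0.793% to 1.61%. LGALS4-201 held 71.9% to 74.0% of LGALS4, and the short LGALS4-208 without coding sequence 16.2% to 19.8%. These ranges span all 3 constructs.

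The other genes of the same families and programme were read from lists that were drawn up with earlier results of these data known. Of 18 other genes of the published classical programme, 11 were tested, none passed with either construct in AsPC-1, and their median log2 fold change was 0.014 with TAp63 and -0.041 with deltaNp63. The latter was 0.052 without deltaNp63 replicate 1 and -0.040 without replicate 2, and whether any of the 11 passed depended on which library was left out. In mock cells 10 of the 11 were lower in PANC-1, led by the intestinal cadherin CDH17 (log2 fold change -8.56), MYO1A (-5.73), CLRN3 (-4.75) and SPINK4 (-2.24), where 27.9% of all genes were lower. Most of the 11, among them MYO1A, CLRN3 and SPINK4, passed the filter through AsPC-1 alone. The filter thus in part set this count, and the share of all genes is no test of it. Of 14 endodermal transcription factors tested, 10 were lower and 3 higher in PANC-1 (27.9% and 44.6% of all genes), among them ELF3 (-7.85), EHF (-7.81), KLF5 (-7.04) and HNF4A (-5.18). EHF and HNF4A also passed the filter through AsPC-1 alone, and others of the 14 through 1 line alone. The filter thus in part set these counts too, and the shares of all genes are no test of them.

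Of 16 other carcinoembryonic antigen family genes with rows in the table, none passed the filter, and their summed level was 0.939 to 2.04 TPM in AsPC-1 and 0.511 to 1.06 TPM in PANC-1. Of 14 protein disulfide isomerases, the family of AGR2, 11 were higher and 2 lower in mock PANC-1, where 44.6% of all genes were higher and 27.9% lower. TXNDC5 and PDIA5 were higher by log2 fold changes of 1.52 each, and ERP29 (-1.61) and TXNDC11 (-1.52) were lower. With deltaNp63 in AsPC-1, 3 of the 14 were called lower, where 6.51% of all genes were: PDIA4 (-0.63), PDIA5 (-0.47) and PDIA6 (-0.28). Each of these calls was lost in 6 of 7 other settings, and PDIA6 stood at -0.072 after median centring (limma adjusted p = 0.452). Without deltaNp63 replicate 1 the values were -0.41, -0.35 and -0.21, and without replicate 2 they were -0.86, -0.59 and -0.35. AGR2 stood at 0.26 and did not pass.

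Of 20 other tetraspanins, 2 were called lower with deltaNp63 in AsPC-1, CD81 (log2 fold change -0.53) and TSPAN3 (-0.33), where 6.51% of all genes were, and both calls were lost in 6 of 7 other settings. Without deltaNp63 replicate 1 these values were -0.36 and -0.27, and without replicate 2 they were -0.70 and -0.38. In mock PANC-1, 9 of the 20 were higher and 7 lower, led by TSPAN5 (5.30) and TSPAN1 (-3.16), which is near the 44.6% and 27.9% of all genes. Of 6 other galectins, LGALS9, which binds the immune receptor TIM-3, fell from 59.0 and 64.7 TPM in mock to 8.14 and 18.7 TPM with deltaNp63 (log2 fold change -2.23, SE 0.299, limma adjusted p = 0.00483). It was the 1 galectin of the 6 called, against 6.51% of all genes called lower. The fall was -1.67 without deltaNp63 replicate 1 and -2.78 without replicate 2. Between mock lines 3 galectins were lower, LGALS2 (-8.35), LGALS3 (-2.58) and LGALS9 (-2.11), and LGALS8 (2.27) was among 3 that were higher, beside 27.9% and 44.6% of all genes. Of 9 other claudins none passed with a construct in the fit of all libraries. Their median with deltaNp63 in AsPC-1 was -0.019 without deltaNp63 replicate 1 and 0.012 without replicate 2. Whether any claudin passed depended on which library was left out. In mock PANC-1, 2 of the claudins were higher, CLDN10 (2.89) and CLDN11 (2.19), and 7 lower, among them CLDN7 (-2.83) and CLDN3 (-2.57), beside 44.6% and 27.9% of all genes. Of the mucosal defence genes that accompany LYZ, 3 were tested, and LCN2 (-7.54), SLPI (-7.03) and DEFB1 (-3.44) were all lower in mock PANC-1, where 27.9% of all genes were. SLPI, DEFB1 and LGALS2 passed the filter through AsPC-1 alone, and TSPAN5, CLDN10 and CLDN11 through PANC-1 alone. The direction of the line difference in these genes was in part set by the filter.

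The 7 other settings for these list genes were added after the data were seen, and LGALS9 passed in 7 of 7. PDIA4, PDIA5, PDIA6, CD81, TSPAN3, SRC and the marker CD68 (log2 fold change -0.39, and -0.40 and -0.38 without deltaNp63 replicate 1 and replicate 2) each passed in 1 of 7, the fit without AsPC-1 deltaNp63 replicate 2. They did not pass with the AsPC-1 libraries alone, with either rescaling, or without deltaNp63 replicate 1, mock replicate 1 or mock replicate 2.

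CEACAM1 is known as an interferon-inducible gene, and its promoter window holds the element printed above, so its values are set beside 26 interferon-response genes. That list was drawn up with its result known and is no independent evidence. In AsPC-1, the log2 fold change of all 26 was negative with either construct, at -0.20 or lower with TAp63 and -0.25 or lower with deltaNp63. Of the 26, 22 passed as lower with TAp63 (median log2 fold change -1.16) and 25 with deltaNp63 (median -1.71). Of all genes, 0.609% and 6.51% passed as lower. CMPK2, a mitochondrial nucleotide kinase, was 32.4 and 29.4 TPM in mock, 6.72 and 5.92 TPM with TAp63, and 2.27 and 4.45 TPM with deltaNp63. CEACAM1 in the same libraries was at 0.27 and 0.40 on the log2 scale and did not pass. With deltaNp63, the median of the 26 was -1.56 without replicate 1 and -1.77 without replicate 2. With the AsPC-1 libraries alone, 14 of the 26 passed as lower with TAp63 and 21 with deltaNp63, and the medians stayed at -1.16 and -1.71. In PANC-1, 0 of 26 passed with either construct.

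**Figure D4:**
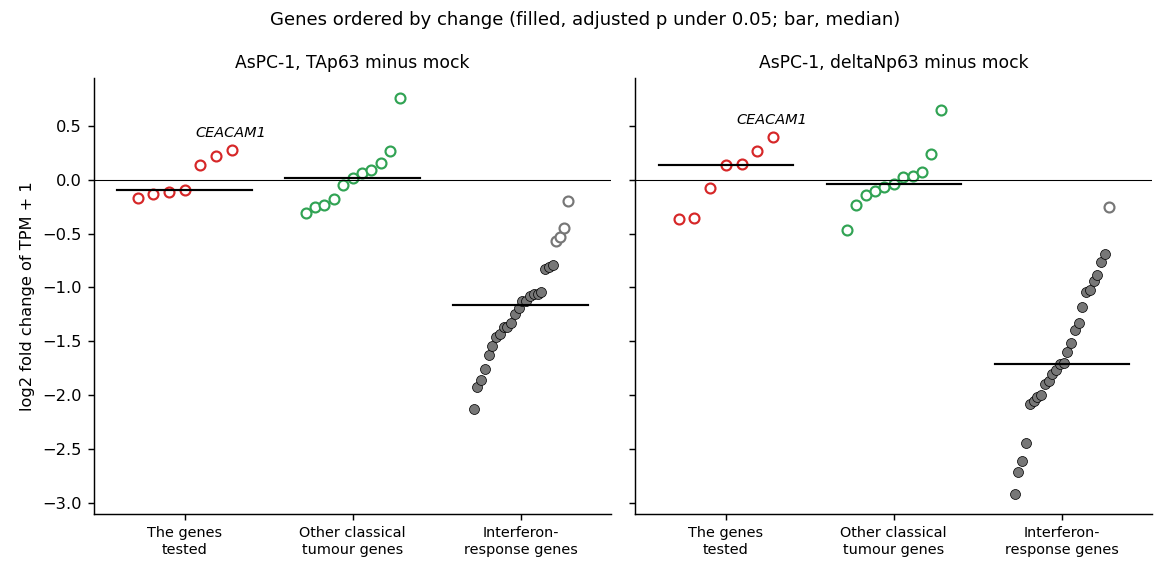
Log2 fold change of TPM + 1 in AsPC-1 for TAp63 and deltaNp63 against mock, for the 7 tested genes (red), 11 other classical tumour genes (green) and 26 interferon-response genes (grey); filled points passed limma's test and bars are medians. No red or green point is filled, and the interferon-response genes have medians of -1.16 and -1.71; both panels use the same mock libraries.

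The genes whose pattern over the 6 AsPC-1 libraries was most like each of the 7, by Pearson correlation of log2(TPM + 1) among 9391 genes with a mean of at least 5 TPM, are given as a description. The libraries share their cell line and groups. They were ZSWIM8 (0.997) and UPP1 (0.995) for CEACAM1, RETREG3 and NSD2 (0.994 each) for CEACAM5, and NOS1AP (0.997) and RHEBL1 (0.996) for CEACAM6. For AGR2 they were C1orf43 (0.988) and IFT80 (0.980), for TSPAN8 ATP5PD (0.988) and NDUFV2 (0.987), for LGALS4 ADGRF1 and LURAP1L (0.975 each), and for LYZ PKNOX1 (0.993) and SNRNP27 (0.992). In PANC-1 only AGR2 reached 5 TPM, and LINC00888 (0.988) and SURF1 (0.980) were nearest to it among 10068 genes.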

How the data were processed

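RNA was measured in 12 libraries of AsPC-1 and PANC-1 cells, 2 in each of 6 groups. Per the labels' protocols, a column kit gave total RNA and a strand-keeping poly(A) kit the libraries. The authors deposited TPM values for 153329 Ensembl transcripts. The aligner, quantifier, build and annotation are not given in the sources used here, and TPM keeps no depth, so precision comes from the replicates alone. Rows were paired with genes through GENCODE v44 (hg38), which matched 139819 rows (91.2%) and 89.6% to 90.5% of a library's TPM, and summed to genes.

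Genes reaching 1 TPM in 2 or more libraries were fitted as log2(TPM + 1) with limma 3.58.1 in R 4.3.3: group means, trended variances, two-sided tests and Benjamini-Hochberg adjustment within a comparison, with the threshold at 0.05. A fold on this scale understates changes of low genes. The fit was run on simulated data with no difference between the lines, which do not stand for genes near 0 in 1 line. The 10 genes and all lists were chosen with earlier results of these data known. From each list, at most 4 genes a comparison were named, by size of change among those that passed, did not overlap and averaged at least 1 TPM; other genes of a list are named as its rule or the label check asks. Same-numbered replicates deviated together with correlations of -0.094 to 0.293, so the numbers were not taken as pairs. Promoters are from RefSeq (GRCh38.p14), matched by symbol for 9 of the 10 genes, LYZ being the exception. No protein sequences were used here. The result of 1 gene of the other lists is not reported here. Other settings are in the closing section.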

Additional observations from a re-analysis of the deposited data

How the results depend on the processing

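The counts of called genes among the 7 kept their side in all 9 comparisons under quantile normalization, median centring, no low-value filter, a pseudocount of 0.1, a fit of the compared groups alone, a fit of 1 cell line (6 comparisons) and transcript rows. The exception was deltaNp63 against mock in AsPC-1, where 0 genes passed. There 1 gene passed without the variance trend (CEACAM5, limma adjusted p = 0.0481) and 1 with a mean of at least 5 TPM required (CEACAM5, limma adjusted p = 0.0479). Leaving out 1 library at a time gave 0 to 3, with 3 (CEACAM1, CEACAM5 and CEACAM6) without AsPC-1 deltaNp63 replicate 2, where 4057 genes passed in all. With the replicate number as a block within each cell line, 0 of 7 passed in every construct comparison and 7 of 7 between mock lines, so the block changed no call. Samples of the same number do not pair by the correlations given with the methods. Median centring turned the TAp63 values of CEACAM6 to 0.014, CEACAM5 to 0.0011 and TSPAN8 to 0.038, and the deltaNp63 value of LYZ to 0.13. Leaving out 1 library at a time, TSPAN8 with TAp63 ranged from -0.24 to 0.055 (0.055 without AsPC-1 mock replicate 1, 0.041 without AsPC-1 TAp63 replicate 2), TSPAN8 with deltaNp63 from -0.0062 (without AsPC-1 mock replicate 2) to 0.29, and LYZ with deltaNp63 from -0.20 to 0.043 (without AsPC-1 mock replicate 1). For these the cause was not tested. The depth of the libraries is unknown, and 2 libraries a group limit what can be called.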
